A study of Mus musculus with 2 samples.

Results

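The nuclear receptors and coactivators that set energy metabolism in heart muscle were examined as 10 genes: the estrogen-related receptors Esrra, Esrrb and Esrrg, the fatty-acid receptors Ppara and Ppard, their partner Rxra, the thyroid hormone receptor Thra, the glucocorticoid receptor Nr3c1, and the coactivators Ppargc1a and Ppargc1b. They were chosen by gene name, and all 10 had reads in both libraries, among 15848 annotated genes with a read in either. The samples were hearts of 2-month-old female B6CASTF1/J mice, an F1 hybrid, with 2 µg of total RNA per library and spike-in RNAs added. Long-read RNA sequencing, in which a read follows a cDNA molecule through its exons, gave 2 libraries of this single group. The labels called the libraries biological replicates and numbered 2 animals in the sample text. However, the library text named the same animal for both and the donor identifier was shared. Differences between the libraries therefore measure the spread between these libraries, which may be technical.

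Nuclear receptors are transcription factors that bind DNA directly, many of them under the control of a lipid or hormone ligand. The estrogen-related receptors have no known natural hormone and depend on the coactivators PGC-1alpha and PGC-1beta, which Ppargc1a and Ppargc1b encode. In heart muscle these factors are known for driving genes of mitochondrial respiration and fatty acid oxidation, while PPARalpha and the thyroid hormone receptor bind DNA as heterodimers with an RXR partner.

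The libraries held 905154 and 745375 reads in replicates 1 and 2, of which 859191 and 707758 lay on annotated genes. Levels are given in CPM, reads scaled to the total on annotated genes, so that 1 read is worth 1.16 and 1.41 CPM, and a count of 0 allows up to 3.49 and 4.24 CPM (3 reads). A long read counts 1 molecule, so levels were not divided by transcript length. Of the reads on ERCC spike-in RNAs, 99.2% and 99.4% were on the sense strand. All 8 cardiomyocyte markers had reads, with 45117 and 47727 CPM in sum. The summed markers were 904 and 822 CPM for endothelium, 1553 and 1513 CPM for fibroblasts, and 597 and 626 CPM for smooth muscle and pericytes. Blood and immune markers summed to 8600 and 8612 CPM, of which the globin gene Hbb-bs held 7867 and 7945 CPM. Alas2, of red cell heme synthesis, had 413 and 455 CPM. Among the immune genes of that list Lyz2 had 233 and 157 CPM, C1qa had 76.8 and 41.0 CPM, and Cd68 had 9.31 and 8.48 CPM. Cd79a had 1 and 1 reads, Ptprc had 0 and 3 reads, and Cd3e had none. The 8 skeletal muscle markers summed to 7784 and 7823 CPM, nearly all of it from Ckm (7338 and 7374 CPM) and Acta1 (442 and 446 CPM), which heart muscle also expresses. Of that list Myh1, Myh2, Myh4 and Tnnt3 had no read, and of 5 liver markers Alb, Apoa1 and Serpina1a had none. Adipocyte markers summed to 510 CPM in replicate 1 and 232 CPM in replicate 2. In that list Car3 (274 and 112 CPM) and Cfd (95.4 and 41.0 CPM) passed the test between libraries with lower levels in replicate 2, and Lep had no read. The adipocyte list had 6 genes tested, and over all genes 30 of 9334 (0.321%) passed. The part of these cells in the values below was not tested. In whole tissue, fewer cells of a type and less RNA per cell cannot be told apart.

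Esrra (chr19:6910977-6921813, minus strand, mm10 as for all positions here) encodes ERRalpha, a driver of oxidative metabolism genes. It carried 894 reads in replicate 1 and 494 in replicate 2, or 1041 and 698 CPM, which placed it at rank 153 of all annotated genes with a mean of 869 ± 242 CPM (SD, n = 2). Few of these reads had the structure of the receptor transcript: 836 of 894 (93.5%, Wilson 95% interval 91.7 to 94.9) and 466 of 494 (94.3%, 91.9 to 96.0) sat on a single-exon model at the extreme 3′ tail of the gene. The remaining reads were spliced, 58 in replicate 1 and 28 in replicate 2. On spliced models Esrra had 67.5 and 39.6 CPM, a mean of 53.5 ± 19.8 CPM (SD, n = 2), and its rank was 2633.

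The single-exon model, assigned to the reverse strand by the authors, lay at chr19:6910834-6911049 (216 bases) in replicate 1 and at chr19:6910977-6911049 (73 bases) in replicate 2 (mm10). Esrra ends at 6910977, and the last exon of Trmt112, which encodes an activator of methyltransferases, runs toward it from the other strand and ends at 6911049. The annotated genes thus share 73 bases, and 143 of the 216 bases of the replicate 1 model were outside Esrra. The models lay wholly over annotated Trmt112 exons of the opposite strand, with 216 bases in replicate 1 and 73 in replicate 2. Trmt112 itself had 33 and 19 reads, all of them spliced, and its processed copies Trmt112-ps1 and Trmt112-ps2 had 0 and 0, and 0 and 1 reads. The model was the 4th most used of 7357 single-exon models of the class called genomic in replicate 1 and the 5th of 7001 in replicate 2. Among 4651 genes with at least 20 reads in each library, 22 (0.473%) had over 90% of their reads on unannotated single-exon models in both libraries, and the medians of that share were 2.86% and 2.53%. The source of the reads on the shared tail was not tested.

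**Figure D1:**
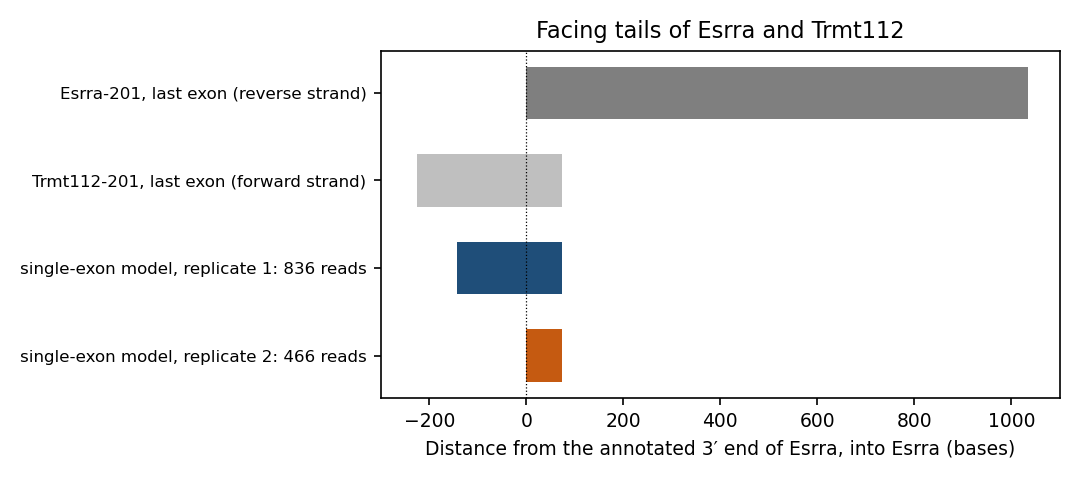
Map of the facing 3′ ends of Esrra and Trmt112, by distance in bases from the annotated end of Esrra (dotted line), with the single-exon models of each library drawn to scale. The models with 836 and 466 reads lie over the last 73 bases of Esrra, and that of replicate 1 runs 143 bases past its end.

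The spliced reads of Esrra were nearly uniform. Esrra-201, the annotated 7-exon transcript of 2242 bases with a coding region of 422 codons (chr19:6910977-6921808), took 53 of 58 spliced reads in replicate 1 and 22 of 28 in replicate 2. The first exon that Esrra-201 shares with 3 other annotated transcripts, with its donor at chr19:6921622, began 54 and 24 reads. Of these, 1 and 2 reads skipped the exon that holds the start codon.

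Esrrb (chr12:86361117-86521628, plus strand) and Esrrg (chr1:187608791-188214885, plus strand) encode the related receptors ERRbeta and ERRgamma. Esrrg had 26 and 26 reads, or 30.3 and 36.7 CPM, and the libraries differed by 1.21-fold (replicate 2 over replicate 1, exact 95% interval 0.677 to 2.18). Of its spliced reads, 22 of 24 and 19 of 22 held a whole annotated coding region. Most of them entered the gene at the same exon: 17 of 24 (70.8%, Wilson 50.8 to 85.1) and 14 of 22 (63.6%, 43.0 to 80.3) were on a 6-exon model of 5066 bases starting at chr1:188043334, the exon that holds the start codon of Esrrg-202 and Esrrg-203. Models that start at this exon match the annotated transcripts in part, and a start there cannot be told apart from a cDNA that stopped short. The other first exons had few reads each. An unannotated first exon with its donor at chr1:187911051 had 2 and 1 reads, a variant donor at 187998056 also had 2 and 1, and the annotated first exon ending at 187998052 had 1 and 2. The annotated transcript Esrrg-201, which encodes the longer form of 458 codons against 435 in the others, was among these with 1 and 2 reads.

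Esrrb stood apart in structure. It had 18 and 12 reads, or 20.9 and 17.0 CPM, but a single read, in replicate 1, matched an annotated transcript, Esrrb-204 with 7 exons. The first exon of Esrrb-204 (chr12:86361117-86361538) was joined in 11 and 7 reads directly to an unannotated last exon at chr12:86411818-86412053, and models that end at this exon held 13 of 14 spliced reads in replicate 1 and 8 of 8 in replicate 2. These 2-exon RNAs were 656 and 658 bases long and held no later annotated exon of the receptor. No annotated gene overlaps Esrrb on the opposite strand. In both libraries, then, spliced Esrrb reads were mainly a short RNA without the annotated exons that follow the first. Apart from the spliced reads, a single-exon model within the annotated last exon (chr12:86519800-86521625) had 4 reads in replicate 1 and 2 in replicate 2. Another single-exon model, at chr12:86361117-86363244, had 2 reads in replicate 2.

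Ppara (chr15:85734983-85802819, plus strand) encodes PPARalpha, the receptor that switches on fatty acid oxidation. It had 24 reads (27.9 CPM) in replicate 1 and 5 reads (7.06 CPM) in replicate 2. Of the 24 reads in replicate 1, 15 were on a single-exon model at chr15:85802819-85806972 that shares 1 base with the annotated end of Ppara and reaches the 3′ end of Cdpf1, the facing gene on the opposite strand. In replicate 2 no read was on such a model. A spliced read of replicate 1 had a last exon that ran on to the same position, 4153 bases past the annotated end. Spliced reads were 9 and 5, and Ppara-202, with 8 exons, 3413 bases and the full 468 codons, took 4 and 3 of them. On spliced models Ppara had 10.5 and 7.06 CPM, and the fold between libraries was 0.674 (exact 95% interval 0.178 to 2.24), where all models gave 0.253 (0.0754 to 0.676).

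Ppard (chr17:28232700-28301474, plus strand), which encodes the related PPARdelta, was the least abundant of the 10 genes, with 5 reads (5.82 CPM) and 1 read (1.41 CPM). Of these, 3 and 1 were single-exon reads in the last exon, and 1 read of replicate 1 was the annotated 8-exon transcript Ppard-201. No spliced read was found in replicate 2, which allows up to 4.24 CPM.

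Rxra (chr2:27676440-27762957, plus strand) encodes RXRalpha, the heterodimer partner of PPAR and thyroid hormone receptors. On all models it had 28 and 25 reads, or 32.6 and 35.3 CPM. On spliced models it had 17 and 9 reads, or 19.8 and 12.7 CPM, with a fold of 0.643 (replicate 2 over replicate 1, exact 95% interval 0.252 to 1.52). Without single-exon genomic models it had 32.6 and 12.7 CPM, with a fold of 0.390 (0.162 to 0.851). The structure was mixed: Rxra-201, with 10 exons and 467 codons, took 8 and 8 reads, while 11 (39.3%) and 16 (64.0%) reads were single-exon and lay in the last exon (chr2:27759541-27762957). A 9-exon model that starts at the exon beginning at 27737299 had 6 reads in replicate 1 and none in replicate 2. The single-exon model was classed as an incomplete splice match in the first library and, starting at 27760183, as genomic in the second.

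**Figure D2:**
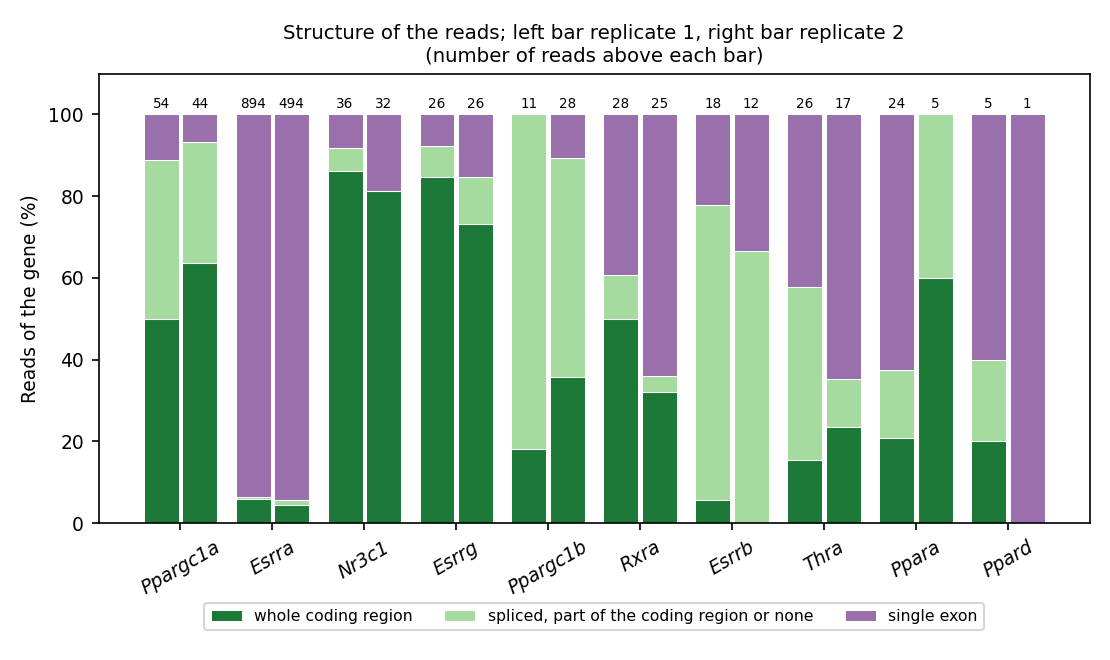
Percent of each gene's reads on models that hold a whole annotated coding region (dark green), on other spliced models (light green) and on single-exon models (purple), with replicate 1 left and replicate 2 right and the number of reads above each bar. Esrra is above 93% single-exon in both libraries, while Nr3c1 and Esrrg are mostly whole coding regions.

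Thra (chr11:98740638-98769006, plus strand) encodes TRalpha, the main thyroid hormone receptor of heart, in forms that differ at their end. The alpha1 form binds hormone, whereas the alpha2 form has another C-terminus and does not. The forms part after a shared exon, where the alpha1 transcript Thra-202 reads on and the others splice to a distant last exon. The sequences at this fork are shown because the reads fell on some of the branches and not on others. Capitals mark the first 60 bases after the shared part (chr11, plus strand, GENCODE M21 on GRCm38).
Thra-202 (alpha1 type): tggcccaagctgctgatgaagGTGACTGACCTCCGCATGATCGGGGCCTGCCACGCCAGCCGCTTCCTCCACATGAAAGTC
Thra-201 (alpha2 type): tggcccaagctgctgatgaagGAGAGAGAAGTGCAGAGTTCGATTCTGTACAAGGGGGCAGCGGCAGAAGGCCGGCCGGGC
Thra-203 (short acceptor): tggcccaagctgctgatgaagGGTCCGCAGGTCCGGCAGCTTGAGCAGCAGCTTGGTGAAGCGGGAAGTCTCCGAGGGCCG

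Thra had 26 and 17 reads, or 30.3 and 24.0 CPM, of which 15 and 6 were spliced. No spliced read ended in the annotated alpha1 branch, and no read of any kind lay in it. For spliced reads this allows at most 14.3% of the 21 (3 reads, counting error alone). Single-exon models with 4 reads in replicate 1 and 2 in replicate 2 lay further on, in the stretch that the alpha2 form splices out. They were outside the annotated exons of Thra, and whether they continue the alpha1 branch was not tested. The alpha2 acceptor was used by 8 of 15 spliced reads in replicate 1 (53.3%, Wilson 30.1 to 75.2) and by 5 of 6 in replicate 2 (83.3%, 43.6 to 97.0). The remaining 7 and 1 reads used the acceptor of Thra-203, 117 bases or 39 codons further in and in the same frame. The intervals of the libraries overlap widely. Thra-201, with 10 exons, 2452 bases and 492 codons, was read whole 3 times in each library, and the 10-exon model with the short acceptor 6 times in replicate 1. Thra-203 was not among the annotated transcripts taken as complete and protein-coding. Reads with its acceptor were therefore not counted as whole coding regions.

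The 3′ end of Thra lies across that of Nr1d1, which encodes the clock repressor REV-ERBalpha on the opposite strand, over 1075 bases. Nr1d1 had 30 and 24 reads. Single-exon reads in Thra numbered 11 and 11. Models at chr11:98767932-98769006 (7 reads, replicate 1) and 98768157-98769006 (9 reads, replicate 2) covered 488 and 263 bases of Nr1d1 exons. Models at 98767499-98767932 (4 reads, replicate 1) and 98766520-98767932 (2 reads, replicate 2) each met Nr1d1 at 1 end base. Neither of the latter held a base of an annotated Thra exon. With all single-exon reads left out, the spliced level of Thra was 17.5 and 8.48 CPM.

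Nr3c1 (chr18:39410545-39519421, minus strand) encodes the glucocorticoid receptor. It had 36 and 32 reads, or 41.9 and 45.2 CPM, and a fold of 1.08 between libraries (exact 95% interval 0.649 to 1.79). Whole coding regions made up 31 of 33 spliced reads and 26 of 26. The spliced reads differed in their untranslated first exon. The annotated first exon with its donor at chr18:39490568 began 14 (42.4%) and 11 (42.3%) reads, and another annotated first exon, with its donor at 39489477, began 12 and 9. The annotated transcript of 9 exons and 6436 bases that uses the donor at 39490568 took 12 and 10 reads, and the annotated transcript of 8 exons and 6327 bases took 3 and 2. The most used unannotated model joined the first exon at 39489477 to the coding exons of the receptor, with 11 and 8 reads. A further choice adds 3 bases at a donor between coding exons and gives a receptor of 793 codons instead of 792, the form known in human as GRgamma. It was seen in 4 of 32 reads over this junction in replicate 1 (12.5%, Wilson 4.97 to 28.1) and in 2 of 26 in replicate 2 (7.69%, 2.14 to 24.1).

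Ppargc1a encodes PGC-1alpha, the coactivator of mitochondrial biogenesis. It had 48 and 41 spliced reads, or 55.9 and 57.9 CPM, with a mean of 56.9 ± 1.46 CPM (SD, n = 2). That mean was the highest of the 10 genes, but Esrra was above it in replicate 1 (67.5 CPM) and the libraries of these genes overlapped. With single-exon reads included it had 54 and 44 reads, or 62.8 and 62.2 CPM. Ppargc1a-203, with 13 exons, 6464 bases and 797 codons (chr5:51454250-51553922, minus strand), took 27 and 28 reads, and the reads called a whole coding region were all on it. No complete annotated coding region begins at the distal start described next, so reads from there are not in that count.

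The gene has a proximal and a distal annotated start, 13804 bases apart, whose first exons encode different N-termini. Their coding stretches are shown because both were found among the reads. Capitals mark the start codon, at chr5:51553735-51553782 and chr5:51567630-51567665 (minus strand, GENCODE M21 on GRCm38).
Ppargc1a proximal first exon: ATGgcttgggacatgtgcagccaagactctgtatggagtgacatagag
Ppargc1a distal first exon: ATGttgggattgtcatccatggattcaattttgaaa

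Of spliced reads that reach a first exon, 32 of 42 (76.2%) in replicate 1 and 34 of 38 (89.5%) in replicate 2 began at the proximal exon. The distal start was used by 9 of 42 (21.4%, Wilson 11.7 to 35.9) and 4 of 38 (10.5%, 4.17 to 24.1), so it was present in both libraries and its shares overlapped. Within it, 4 and 4 reads used the annotated donor. In replicate 1, 5 reads used an unannotated donor at 51567580 further on, and none did in replicate 2. A model that joins the distal exon to the 12 following exons of Ppargc1a-203 had 4 and 3 reads and was, apart from incomplete matches, the most used unannotated spliced model of the gene in both libraries, level in replicate 1 with a model of the longer distal exon.

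The stretch before the distal start is shown because reads began at the exon it precedes. It is the 250 bases before the RefSeq start (chr5:51567726-51567975, minus strand, GRCm38.p6), and capitals mark a match to TGACGT, the core of the cyclic AMP response element, here on the opposite strand and read as ACGTCA.
Ppargc1a distal promoter: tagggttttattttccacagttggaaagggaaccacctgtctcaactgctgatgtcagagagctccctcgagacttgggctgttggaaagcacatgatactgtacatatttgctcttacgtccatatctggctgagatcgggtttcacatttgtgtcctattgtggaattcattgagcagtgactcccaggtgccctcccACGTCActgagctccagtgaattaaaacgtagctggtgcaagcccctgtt

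This match began 50 bases before the start site. TGACGT on either strand was found in 7.51% of 32851 RefSeq promoter windows (250 bases before and 50 after a start), and in 1 of the 12 windows that 7 of the 10 genes have. AAGGTCA, the half-site that estrogen-related receptors bind, was found on either strand in 4.72% of windows and in 1 of the same 12, an Rxra window. No window of the 12 held both motifs. Ppargc1a had 1 of these windows, at the distal start, so the stretch before its proximal start was not searched. A match is a run of letters and not a measured binding site.

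A second choice in Ppargc1a extends a coding exon by 31 bases. The junction is shown because the extra bases bring in a stop codon, taa at bases 11 to 13 of the extension. Capitals mark the 31 extra bases (chr5:51490082-51490121 on the side of the extended exon, minus strand).
Ppargc1a-201: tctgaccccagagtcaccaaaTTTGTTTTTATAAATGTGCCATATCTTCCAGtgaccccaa
Ppargc1a-203: tctgaccccagagtcaccaaatgaccccaa

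The extended exon gives the annotated transcript Ppargc1a-201 a reading frame of 270 codons, the type described in mouse as NT-PGC-1alpha, an N-terminal form. It was used by 3 of 43 reads over the junction in replicate 1 (6.98%, Wilson 2.40 to 18.6) and by 5 of 39 in replicate 2 (12.8%, 5.60 to 26.7). Ppargc1a-201 itself took 2 and 4 reads. It was not among the annotated transcripts taken as complete and protein-coding, so these reads were not counted as whole coding regions. Rarer structures were an intron of 2957 bases inside the last exon, which removes the last coding base and the stop codon, in 1 and 2 reads, and a joint skip of 3 middle exons in 1 and 1 reads.

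**Figure D3:**
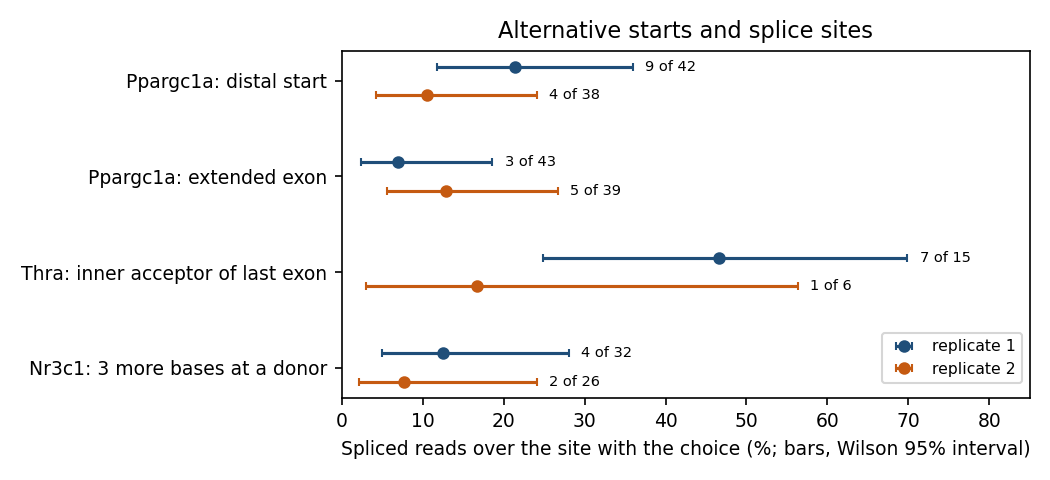
Share of spliced reads over each site that used the named alternative, per library, with Wilson 95% intervals and the read counts beside them. The intervals of replicates 1 and 2 overlap for the distal start (21.4% and 10.5%) and extended exon (6.98% and 12.8%) of Ppargc1a, the inner acceptor of Thra (46.7% and 16.7%) and the 3 extra bases of Nr3c1 (12.5% and 7.69%).

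Ppargc1b (chr18:61298136-61400431, minus strand) encodes PGC-1beta, the related coactivator. It had 11 reads (12.8 CPM) in replicate 1 and 28 reads (39.6 CPM) in replicate 2, a fold of 3.09 (exact 95% interval 1.49 to 6.88). Both its main structures had more reads in replicate 2: Ppargc1b-202, with 12 exons, 3656 bases and 1014 codons, had 2 and 10 reads, and an 8-exon model of 3010 bases that starts within the gene had 5 and 14. On spliced models the fold was 2.76 (1.31 to 6.21).

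By spliced reads the 10 genes spanned 56.9 CPM for Ppargc1a to 1.16 CPM for Ppard. Esrra came next to Ppargc1a, with overlapping libraries and a ratio of summed reads of 1.03 (exact 95% interval 0.761 to 1.41). Esrra exceeded Nr3c1 (37.6 ± 1.18 CPM) by 1.46-fold in summed reads (1.03 to 2.07). Their libraries did not overlap, but narrowly: the lower for Esrra was 39.6 CPM and the higher for Nr3c1 was 38.4 CPM. Spliced reads of Esrra against Nr3c1 were 58 against 33 in replicate 1 and 28 against 26 in replicate 2. Nr3c1 and Esrrg (29.5 ± 2.23 CPM) did not overlap between libraries, but the interval of their ratio, 0.858 to 1.93, includes equal levels. Next came Ppargc1b at 24.1, Rxra at 16.3, Esrrb at 13.8, Thra at 13.0 and Ppara at 8.77 CPM. From Esrrg down to Ppara, the libraries of each gene overlapped those of the next. Ppard was below Ppara by a ratio of 7, with an interval of 1.61 to 63.5.

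**Figure D4:**
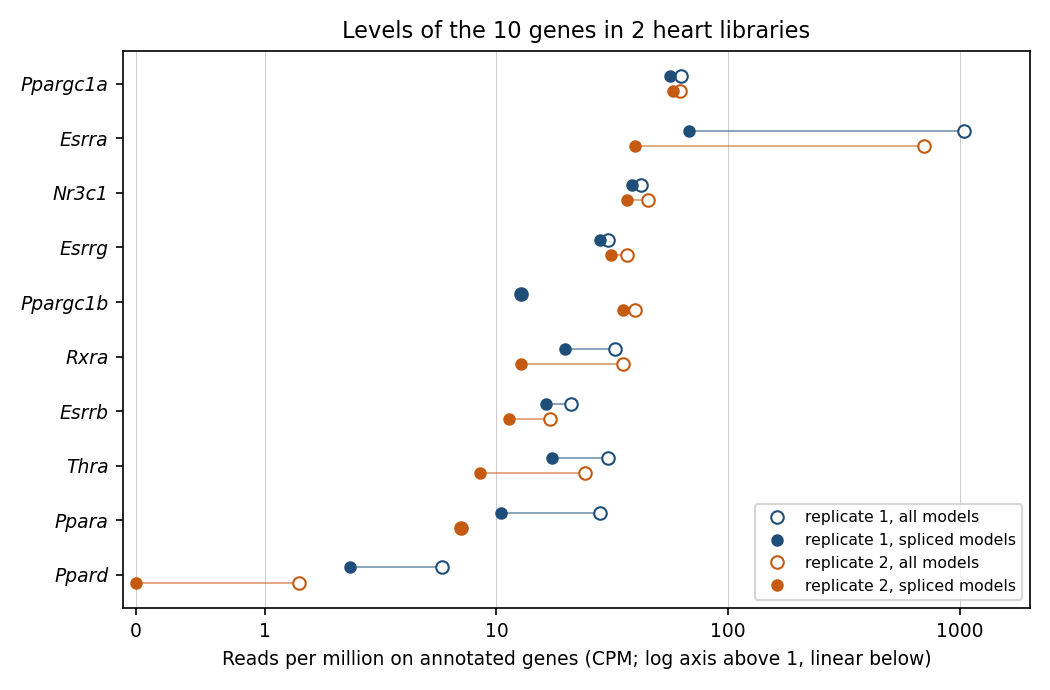
CPM of the 10 genes per library on all models (open circles) and on spliced models (filled circles), ordered by the spliced mean, on an axis that is logarithmic above 1. The open and filled circles lie far apart for Esrra (1041 and 67.5 CPM in replicate 1), and close together for Ppargc1a, Nr3c1 and Esrrg.

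Across the 10 genes, 891 of 1122 reads (79.4%) in replicate 1 and 514 of 684 (75.1%) in replicate 2 were single-exon, most of them from Esrra. Of the spliced reads, 160 of 231 (69.3%) and 120 of 170 (70.6%) held a whole annotated coding region. The libraries had 58 and 45 spliced structures and shared 28, which is 48.3% of those of replicate 1 and 62.2% of those of replicate 2. The shared structures carried 80.5% and 89.4% of the spliced reads. Both ends of the single-exon models fell on annotated exon ends in 8 of 12 and 6 of 14 models. Ends of coding segments and of exons of neighbouring genes on either strand were counted as such.

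Whether any of the 10 genes differed between the libraries was tested over all genes with the two-sided exact binomial test and Benjamini-Hochberg adjustment. Of 9334 genes tested, 30 (0.321%) passed an adjusted p of 0.05 and a fold of 2, and none of the 9 genes of the set that could be tested did. Unadjusted p-values below 0.05 numbered 796 genes (8.53%) and 3 of the 9, Esrra, Ppara and Ppargc1b. Esrra had an adjusted p of 3.98e-10 in this exact binomial test, but its fold of 0.671 (0.600 to 0.750) fell short of 2. On spliced reads alone its fold was 0.586 (0.359 to 0.935), with an adjusted p of 0.436 (exact binomial). The adjusted p (exact binomial) was 0.0767 for Ppargc1b and 0.131 for Ppara, and the other 6 genes were above 0.9. With spliced models alone, 18 of 8363 genes (0.215%) passed, and none of 9 in the set.

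**Figure D5:**
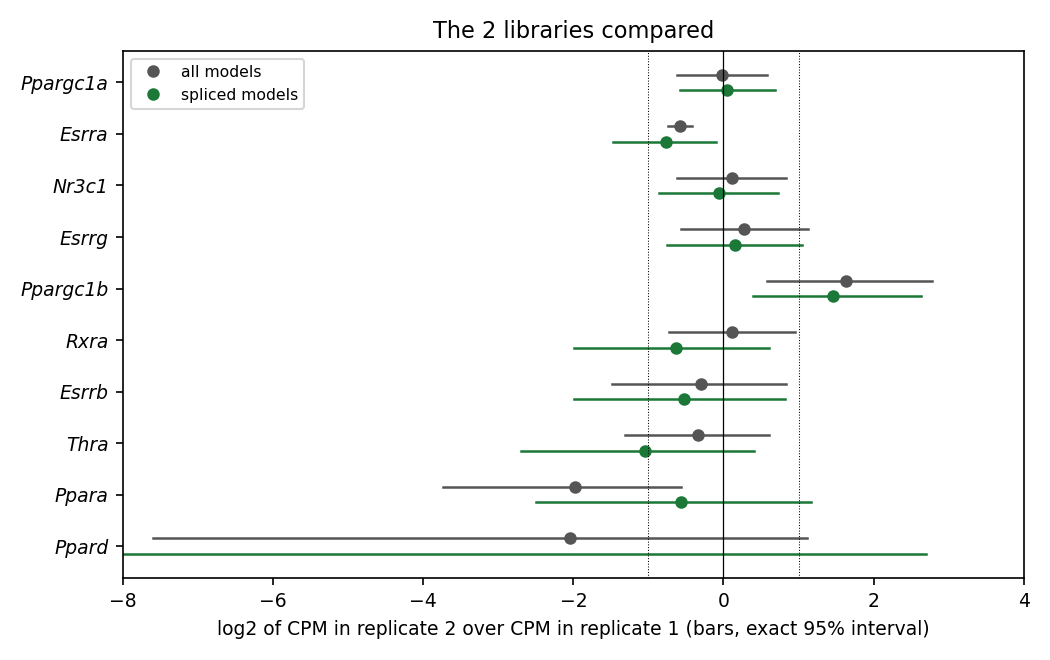
Log2 of the CPM ratio of replicate 2 over replicate 1, on all models (grey) and on spliced models (green), with exact 95% intervals that cover counting error; dotted lines mark 2-fold. Ppargc1b lies to the right of 0 on both, Esrra to the left, and the spliced interval of Ppara includes 0; the spliced bar of Ppard, with no read in replicate 2, runs off the left edge.

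Shares of annotated models and isoform use were tested in the same way with Fisher's exact test. For shares of annotated models, 6 of 4651 genes (0.129%) passed and none of the 5 genes of the set with 20 reads in each library. Ppargc1a had 29 of 54 (53.7%) and 32 of 44 reads (72.7%) on annotated models, with an adjusted p of 1 (Fisher's exact). For isoform use 1 of 1920 genes (0.0521%) passed. Ppargc1a, the gene of the set with enough annotated reads on more than 1 annotated model, had 27 of 29 (93.1%) and 28 of 32 (87.5%) on Ppargc1a-203. Esrra had 53 and 22 annotated reads, all of them on Esrra-201, and was not tested for isoform use.

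Other receptors and cofactors were measured in the same libraries. Of 13 other receptors that are RXRs or pair with them, among them Pparg, Thrb and the retinoic acid and liver X receptors, 9 had reads. Rxrb and Rxrg, partners that can take the place of RXRalpha, had 109 and 93.3, and 97.8 and 94.7 CPM, above Rxra in both libraries. The liver X receptor Nr1h2 had 95.4 and 94.7 CPM. Of 27 more distant nuclear receptors 17 had reads, led by the orphan receptor Nr2f6 at 386 and 353 CPM. All 19 other coactivators had reads, and Perm1, a muscle cofactor of the PGC-1 and ERR pathway, had 235 and 239 CPM. All 10 genes listed as corepressors had reads. Park7, known as a redox-sensitive chaperone and not as a nuclear receptor corepressor, had 275 and 250 CPM, and Mybbp1a, which binds PGC-1alpha, had 71.0 and 77.7 CPM. In these lists 9, 11, 15 and 9 genes were tested, in that order, and none passed, against 0.321% of all genes tested.

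Target genes were counted by the receptor they are known to answer to. Of 30 ERR and PGC-1 target genes, 30 had reads, with 72448 and 71496 CPM in sum. Slc25a4, the ADP/ATP carrier of mitochondria, had 20154 and 20248 CPM, and Atp5b, a subunit of ATP synthase, had 10325 and 10533 CPM. None of the 29 tested passed, with a median log2 ratio of 0.03 against 0.05 over all genes tested. The 30 PPAR target genes summed to 28889 and 28833 CPM, led by the fatty acid carrier Fabp3 (9103 and 8097 CPM), which the ERR list also holds, and by Hadhb (4522 and 4797 CPM), a subunit of the mitochondrial beta-oxidation complex. Of 29 tested, 1 passed, against 30 of 9334 (0.321%) over all genes tested. It was Ucp3, an uncoupling protein of muscle mitochondria, with 14 reads in replicate 1 and 38 in replicate 2, or 16.3 and 53.7 CPM. Its adjusted p was 0.00806 (exact binomial).

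Thyroid hormone targets were led by Myh6, the fast cardiac myosin heavy chain, at 30444 and 34817 CPM, and by the calcium pump gene Atp2a2 at 10069 and 12292 CPM. Of 20 in the list 18 had reads, and the deiodinase genes Dio1 and Dio3 had none. Among 20 glucocorticoid receptor targets 19 had reads, with Pdk4, an inhibitor of glucose oxidation, at 659 and 798 CPM and Tsc22d3, which encodes GILZ, at 296 and 292 CPM. Of 11 chaperones and hormone enzymes of the same receptor 10 had reads. The chaperones Hspa8 and Hsp90ab1 had 1859 and 1519, and 1432 and 1327 CPM, and Hsd11b2, which inactivates glucocorticoid hormone, had no read. Of 16 kinases and regulators upstream of PGC-1alpha 15 had reads, with Akt1 at 542 and 475 CPM and Mef2a at 165 and 165 CPM. In these lists 14, 18, 10 and 14 genes were tested, in that order, and none passed, against 0.321% of all genes tested. The median log2 ratios of these lists lay between -0.05 and -0.01.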

How the data were processed

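The deposited values were whole counts of long reads per transcript model, 1 file per library, which the authors made from alignments to mm10 with the GENCODE M21 annotation, per the text deposited beside them. Unannotated models carry TALON classes there: incomplete splice match, new combinations of annotated sites, models with an unannotated site, and genomic. Aligner, versions and filters are not given in the sources used here. Exon numbers, model lengths and coordinates are the authors' own.

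Models were summed per gene, spike-ins left out, and CPM taken on annotated genes. Coding regions, first exons and splice choices were read from model exons against GENCODE M21. Genes with at least 10 reads were compared between libraries by a two-sided exact binomial test conditional on their sum (SciPy 1.17.1), log2 ratios with 0.5 reads added, and shares with Fisher's exact test. Intervals cover counting error only. The script was tested on simulated data. edgeR 4.0.16 and DESeq2 1.42.0 served alternatives. Scaling, filters, model classes, fold minimum and left-out libraries were varied, and spliced models alone were added after seeing the data. The 10 genes and all lists were chosen with earlier results of these data known. Named genes were the set, its annotated models with at least 5 reads or the leading one, its 3 most used unannotated spliced models, the 2 to 4 most abundant genes per list and those called. Structures of fewer reads were picked once their values had been seen. Values of 1 gene that this rule names are not reported here.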

Additional observations from a re-analysis of the deposited data

Results flagged for a closer look

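Reads outside the comparisons above lay on the strand opposite the genes, on models with no annotated gene, in numbers above the 3 reads that a count of 0 allows. Opposite Ppargc1a there were 28 reads in replicate 1 and 28 in replicate 2, on 15 and 9 models, of which 8 and 6 reads touched annotated exons of Ppargc1a and the others did not. Opposite Esrrg there were 13 and 14 reads on 9 and 8 models, with 1 and 0 reads over exons. Smaller numbers lay opposite Esrrb (5 and 4 reads), Ppard (4 and 4), Ppargc1b (4 and 6) and, in replicate 2, Nr3c1 (4). Over the 10 genes there were 61 and 60 such reads, on 36 and 28 models, of which 2 were spliced. Rxra had none, and Esrra, Ppara and Thra had at most 2. ERCC spike-in reads were antisense in 93 of 11019 and 46 of 7250 cases. The source of these reads was not tested. With 2 libraries no group was large enough to look for a sample far from the others.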

How the results depend on the processing

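The level of Esrra depended on which models were counted: against 869 CPM on all models it was 53.5 CPM without single-exon genomic models, 53.5 CPM on spliced models alone and 46.4 CPM on annotated models, since the tail model drops out by construction. Leaving out either library gave 698 to 1041 CPM. Counts of genes that differ between the libraries, 30 in the main test, were 15 on annotated models, 18 on spliced models, 107 with no fold minimum, where Esrra passed, and 12 and 4 with edgeR's exact test at a preset BCV of 0.1 and 0.2. For class shares the count was 112 against 6 when incomplete matches were grouped with annotated models, and Rxra passed (26 of 28 and 9 of 25 reads, Fisher's exact adjusted p of 0.00139), since its last-exon model carries that class in replicate 1 alone. For isoform use it was 30 against 1 when incomplete matches were added. The other alternatives kept these counts within 1.5 times. Under TMM and DESeq2 factors 10 of 10 levels moved by less than 1 SD. On annotated models 7 of 10 moved by more, and 6 of 10 on spliced models. Leaving out a library cannot move a mean of 2 by 1 SD, but gave 12.8 to 39.6 CPM for Ppargc1b and 7.06 to 27.9 CPM for Ppara. No paired analysis was possible because the labels give a single group. Depth limits what can be said of structures: the 10 genes had 231 and 170 spliced reads in all.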
